A study of Rattus norvegicus with 6 samples.

Results

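The genes that encode the collagen prolyl and lysyl hydroxylases and their chaperones were followed in cultured vascular smooth muscle (VSM) cells of young and old rats. They were taken by symbol from the deposited gene counts, where 10 of the 10 genes sought (P4ha1, P4ha2, P4ha3, P4hb, Plod1, Plod2, Plod3, P3h1, Crtap and Serpinh1) were found among 14475 genes. VSM cells were isolated from soleus feed arteries (SFA), the arteries that supply the soleus muscle, of male Fischer 344 rats aged 4 months (young) or 24 months (old), and grown in medium with serum. Polyadenylated RNA of 3 young and 3 old cultures, each from a different rat, was sequenced as 1 stranded library per culture. The labels name no treatment. All cells had left the vessel wall and its load, which limits the cultures as a model of the aged artery. The question was whether the enzymes that prepare collagen for export differ with age in these cells.

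A collagen chain is modified in the endoplasmic reticulum (ER) before its triple helix closes. Prolyl 4-hydroxylase, built from an alpha subunit (P4ha1, P4ha2 or P4ha3) and the beta subunit P4hb, which is also protein disulfide isomerase, hydroxylates prolines and so makes the helix stable at body temperature. Lysyl hydroxylases (Plod1, Plod2 and Plod3) hydroxylate lysines, Plod1 mainly in the helix and Plod2 mainly in the telopeptides, where the modification sets the type of crosslink, and Plod3 also transfers sugars to hydroxylysine. Prolyl 3-hydroxylase P3h1 works in a complex with Crtap, and Serpinh1 (HSP47) is a chaperone that binds the folded procollagen helix. The hydroxylases need oxygen, iron, ascorbate and 2-oxoglutarate, and P4ha1, P4ha2 and Plod2 are known targets of the hypoxia-inducible factor HIF.

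Promoter windows of the 10 genes, from 250 bases before to 50 bases after a start site, were read from RefSeq on the rat assembly GRCr8, which is not the assembly the counts were made on. The HIF core ACGTG was searched on both strands and stood in the windows of P4ha1, P4ha2 and Plod2. These are 3 of the 10 genes, beside 19.3% of all 33469 promoter windows of that length. P4ha2 and Plod2 had 2 cores each before the start, at 131 and 39 bases in P4ha2 and at 176 and 131 bases in Plod2, and P4ha1 had 1 core, 13 bases after a start site that lies inside the span of the gene. They are shown because HIF is known to act on these genes. The windows of the other members, P4hb and Plod1 among them, held no core. The stretches are written on the strand of the gene with the core, or its reverse complement CACGT, in capitals. The window of Plod1, the gene with the clearest age difference, is shown in lower case.
P4ha1, 30 bases from a start site 60350 bases inside the gene, + strand, chr20:27845046-27845075: gtgactgagcgCACGTagcgagagctgtgg
P4ha2, 200 bases before the start, + strand, chr10:38743694-38743893: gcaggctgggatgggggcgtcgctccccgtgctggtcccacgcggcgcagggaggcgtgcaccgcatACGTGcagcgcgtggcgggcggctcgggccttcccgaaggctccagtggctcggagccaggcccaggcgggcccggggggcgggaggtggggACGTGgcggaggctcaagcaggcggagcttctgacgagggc
Plod2, 200 bases before the start, + strand, chr8:101964118-101964317: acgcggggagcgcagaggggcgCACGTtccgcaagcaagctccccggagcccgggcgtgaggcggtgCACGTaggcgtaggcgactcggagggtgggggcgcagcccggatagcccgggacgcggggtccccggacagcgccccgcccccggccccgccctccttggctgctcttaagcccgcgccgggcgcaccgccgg
Plod1, 200 bases before the start, - strand, chr5:163650738-163650937: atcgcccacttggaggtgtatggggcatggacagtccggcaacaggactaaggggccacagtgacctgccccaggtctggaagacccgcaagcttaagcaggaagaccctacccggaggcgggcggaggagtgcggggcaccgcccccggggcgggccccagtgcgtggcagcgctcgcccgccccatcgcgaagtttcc
Serpinh1, 30 bases within 45 bases of the start, - strand, chr1:163062992-163063021: gtttccaactTTCCAGAAGTTTCttaggac
In Serpinh1 the capitals mark overlapping heat shock element pairs (GAANNTTC and TTCNNGAA, both strands), of which at least 1 was found in 5 of the 10 windows and in 15.9% of all windows. Pairs that the stretches above leave unmarked lie 5 bases before the start in Plod1 and 99 bases before it in P4ha2. The CCAAT box was also searched, and was found in 2 of the 10 windows and in 37.5% of all windows. An ER stress element was found in no window of a member and in 0.0657% of all windows. No share of the 10 windows was tested against that of all windows. These letters describe the windows and say nothing of binding in the cells.

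Counts on genes summed to between 44235674 and 59700887 per library, and the 10 genes took 0.513% to 0.717% of them, with at least 5793 counts for each gene in each library. For Crtap in young the spread between cultures was about as small as counting error, and for P4ha3 in old it was smaller than counting error. Libraries of a group were not copies of each other. Of 10 smooth muscle markers 10 were in the table, with Acta2, smooth muscle actin, at 4972 to 10381 CPM in young and 1126 to 2201 CPM in old. All 10 were lower in old, with a summed level of 17100 to 28860 CPM (counts scaled to a common library size, after TMM) in young and 6246 to 9502 CPM in old. Fibroblast markers, of which 10 of 10 were also in the table, summed to 2358 to 2400 CPM in young and 2914 to 3750 CPM in old, with 8 of 10 higher. Endothelial markers (5 of 8 in the table) summed to 10.9 to 17.1 CPM in young and 13.6 to 20.0 CPM in old, macrophage markers (3 of 7) to 5.13 to 16.0 and 10.4 to 16.8 CPM, and Schwann cell markers (3 of 6) to 12.5 to 75.2 and 54.3 to 85.4 CPM. Skeletal muscle markers (4 of 10 in the table) summed to 161 to 383 CPM in young and 20.8 to 45.0 CPM in old. Defining markers such as Cdh5, Ptprc, Sox10 and Myod1 were not among the genes of the table. The part of these shifts in the results that follow was not tested. In bulk RNA, more cells with a gene and more RNA per cell cannot be told apart.

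Across the 10 genes, the age difference was small except for Plod1. In edgeR's quasi-likelihood test over all 14475 genes, 0 of the 10 was called, that is, had an adjusted p under 0.05 together with a 2-fold difference or more in either direction, where 0.00691% of all genes did. DESeq2 also called 0 of the 10 against 5.56% of all genes, and limma-voom called 0 of 10 and 0 of all genes. At an unadjusted p under 0.05, edgeR gave 1 of the 10, Plod1, compared with 22.6% of all genes. The same gene was the only member whose old libraries all lay on 1 side of the young libraries, while 29.2% of all genes had separate groups. Higher in old were 6 genes and lower 4, and the median log2 fold change of the 10 was 0.04, beside 0.02 over all genes. For 8 of the 10 genes the 95% interval of the difference lay within a 2-fold change in either direction, and for 9 of the 10 it included no change.

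**Figure D1:**
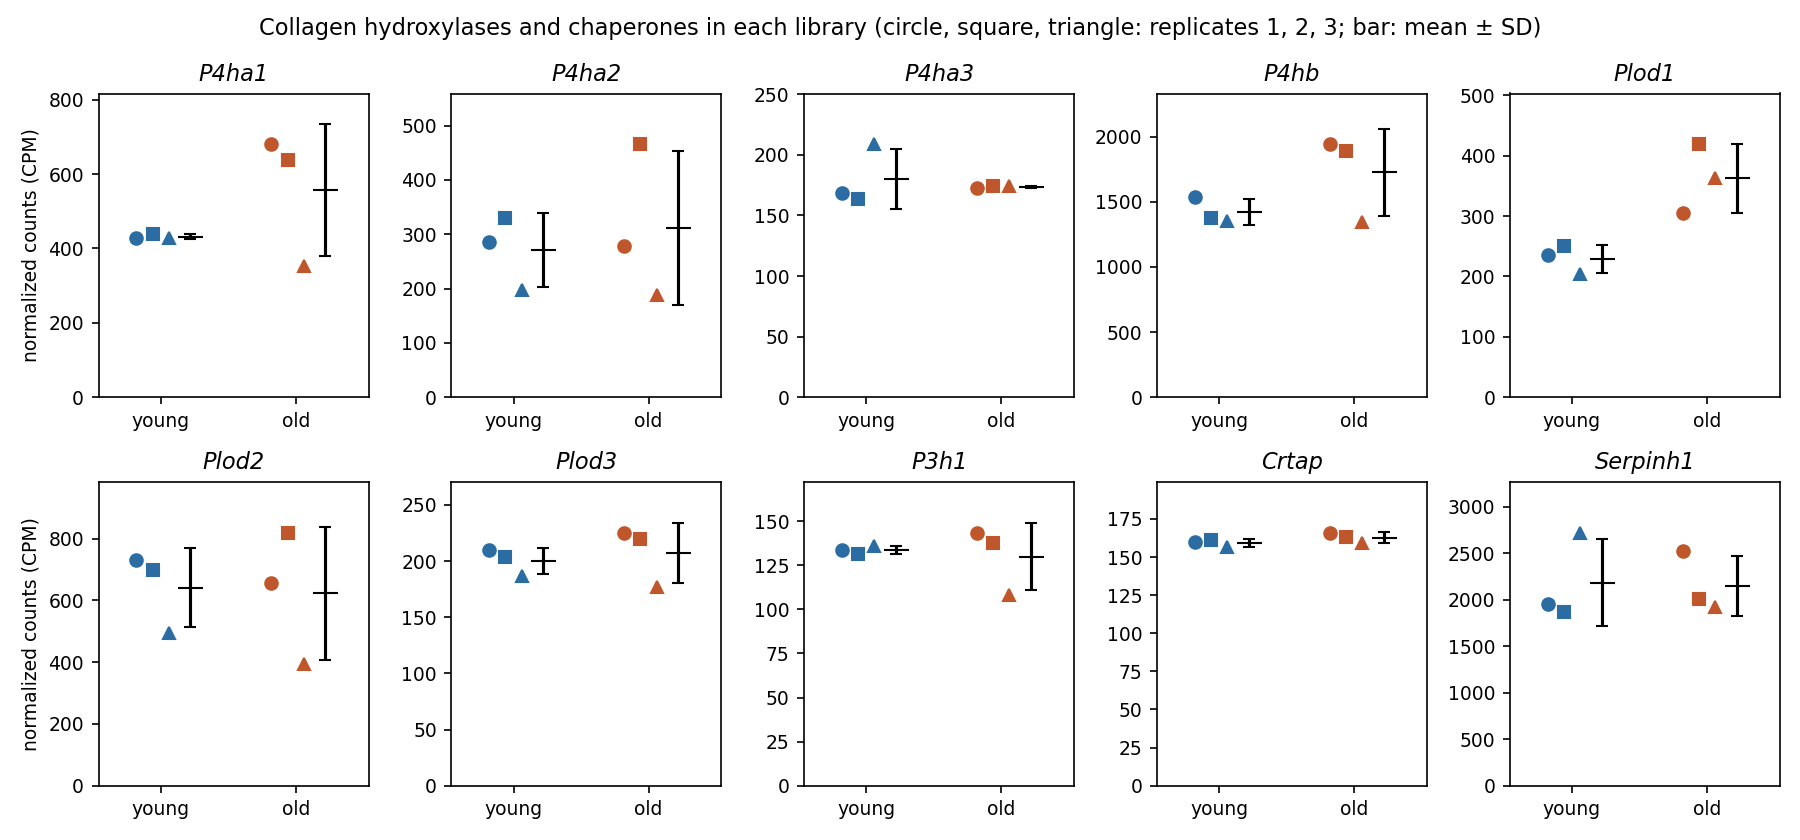
Normalized counts (CPM, linear axes from 0) of each gene in the 3 young (blue) and 3 old (orange) libraries, with circle, square and triangle for replicates 1, 2 and 3 and a bar for the mean ± SD. Only for Plod1 do all old points (304 to 419 CPM) lie above all young points (204 to 249.6 CPM), and the triangle of the old group is the lowest old point in 8 of the 10 genes.

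**Figure D2:**
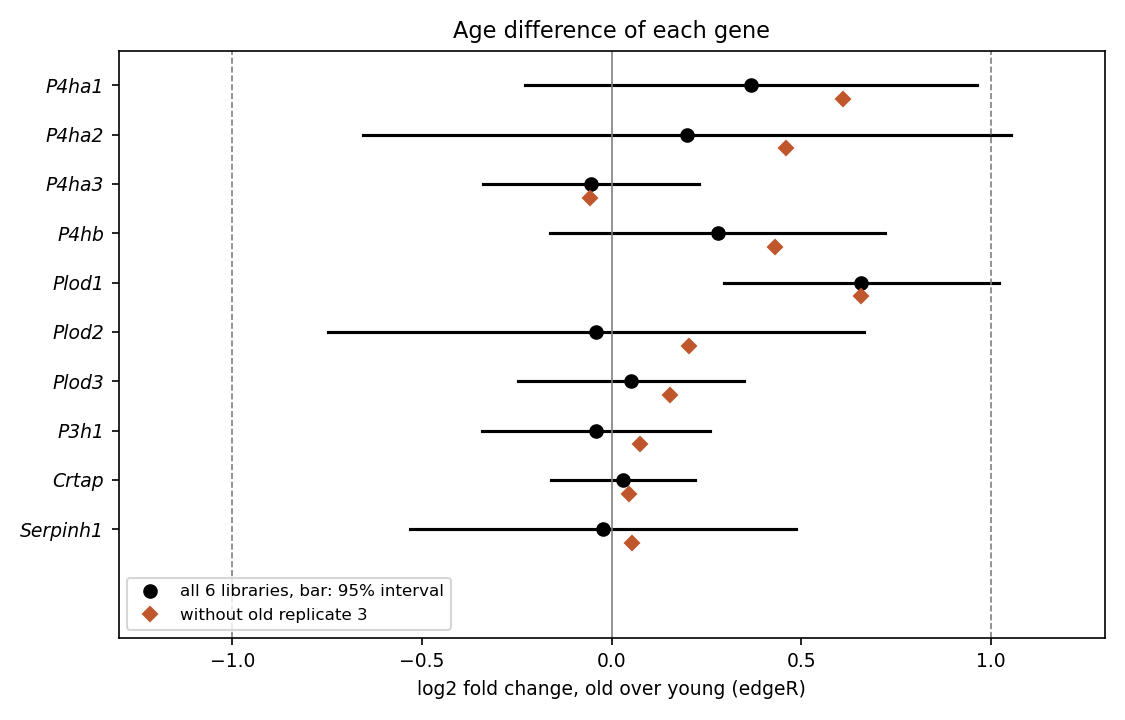
Log2 fold change of old over young for each gene from edgeR, with the 95% interval over all 6 libraries (black) and the estimate without old replicate 3 (orange diamonds); dashed lines mark 2-fold changes. The interval of Plod1 (0.29 to 1.02) is the only interval that does not include 0, and the diamonds of P4ha1 and P4hb lie to the right of their black points.

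Among the lysyl hydroxylases, only Plod1 had young and old libraries that did not overlap. No fit compared the age differences of these genes with each other, and the interval of Plod2 (-0.75 to 0.67) included the estimate for Plod1. Plod1 (ENSRNOG00000007763) stood at 235, 249.6 and 204 CPM in young replicates 1, 2 and 3 and at 304, 419 and 363 CPM in old replicates 1, 2 and 3. The groups did not overlap, and the lowest old library was above the highest young library. The young mean was 229.5 ± 23.2 CPM (SD, n = 3) and the old mean 362 ± 57.4 CPM (SD, n = 3), a 1.58-fold difference (log2 fold change 0.66, standard error 0.15) that edgeR gave an adjusted p of 0.0974. DESeq2 gave an adjusted p of 0.00301 at a log2 fold change of 0.65, which passes 0.05 but not the 2-fold minimum. Of the 10 genes only Plod1 did so in DESeq2, where 12.2% of all genes had an adjusted p under 0.05 at any fold change and 5.6% were also higher in old. Without old replicate 1 the edgeR adjusted p was 0.0338 and the log2 fold change 0.77. That omission changed the whole fit, in which the genes with an adjusted p under 0.05 went from 1 to 1380, and 3.73% of all genes were then also higher in old.

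Plod2 (ENSRNOG00000030183) had 729.7, 698 and 495 CPM in young and 656, 819.6 and 394 CPM in old. The old libraries spread to both sides of the young libraries, and the third replicate was lowest in each group. The log2 fold change was -0.04 (standard error 0.29), with a 95% interval from -0.75 to 0.67 and an edgeR adjusted p of 0.944. Plod3 (ENSRNOG00000001417) had 209.6, 203 and 187 CPM in young and 225, 219 and 177 CPM in old. Its log2 fold change of 0.05 (standard error 0.12) had a 95% interval from -0.25 to 0.35 and an edgeR adjusted p of 0.827.

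As a share of the summed Plod counts of a library, which does not depend on the normalization, Plod1 took 20.0%, 21.7% and 23.1% in young and 25.7%, 28.7% and 38.9% in old. Plod2 took 62.1%, 60.6% and 55.9% in young and 55.3%, 56.2% and 42.2% in old, and Plod3 15.0% to 21.1% over all libraries. The share of Plod1 was higher in each old than in each young library, a difference of 9.53 percentage points with p = 0.1 in an exact permutation test (two-sided), the smallest value that 3 against 3 libraries allow, and 0.3 after adjustment over 9 shares and ratios. Without old replicate 3 it was 5.63 percentage points. For Plod2 the difference was -8.32 percentage points (exact permutation p = 0.2), with 1 old library above the lowest young library, and without old replicate 3 it was -3.78 percentage points. The shares also depend on transcript length, so they were compared between libraries and not between genes.

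**Figure D3:**
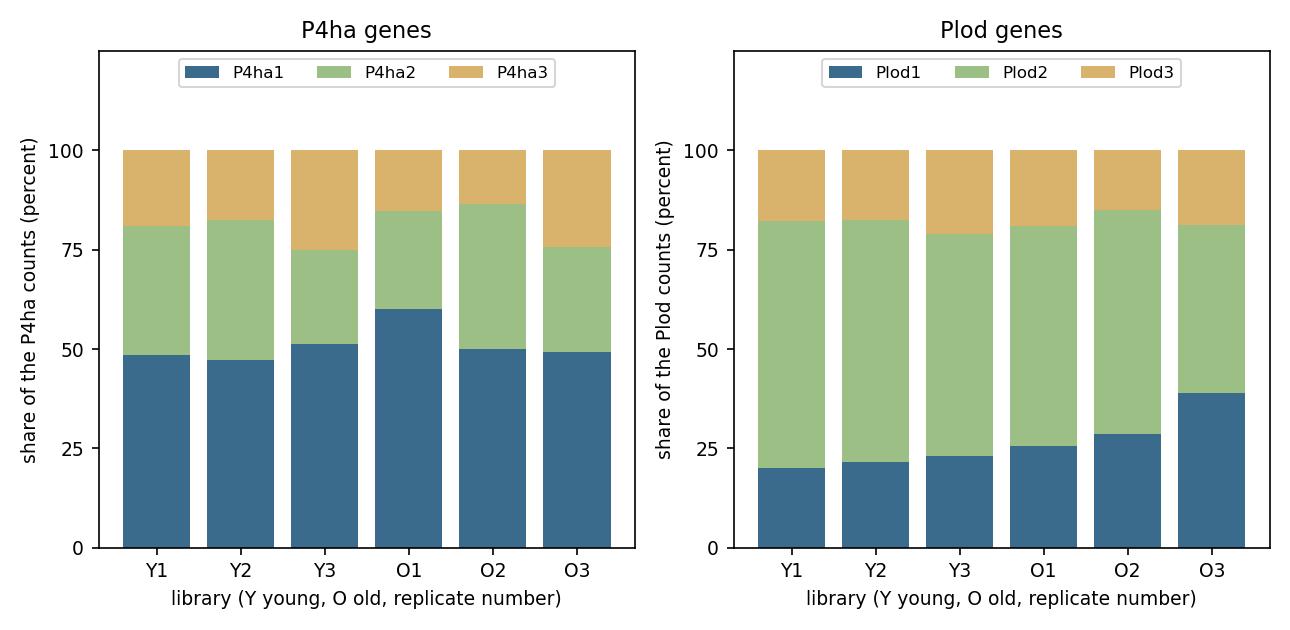
Share of each gene in the summed P4ha counts (left) and Plod counts (right) of each library, in percent, with Y1 to Y3 for the young and O1 to O3 for the old replicates. The blue part of the right panel, Plod1, spans 20.0% to 23.1% in young and 25.7% to 38.9% in old, while no part of the left panel separates the groups.

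The catalytic alpha subunits of prolyl 4-hydroxylase showed no common age difference. P4ha1 (ENSRNOG00000050655) had 429, 439.5 and 428 CPM in young and 681, 637 and 353 CPM in old. The young libraries lay close together, 2 old libraries were well above them and old replicate 3 was below all of them. Over all 6 libraries the log2 fold change was 0.37 (standard error 0.25) with an edgeR adjusted p of 0.403, and the means were 432 ± 6.47 CPM (SD, n = 3) for young and 557 ± 178 CPM (SD, n = 3) for old. Without old replicate 3, the log2 fold change of P4ha1 was 0.61 in edgeR (standard error 0.11, adjusted p = 0.134) and 0.60 in DESeq2 (adjusted p = 6.38e-10). On all 6 libraries DESeq2 gave an adjusted p of 0.409. Because old replicate 3 was the lowest old library, leaving it out raises the old mean, so the values without it are no separate support.

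P4hb (ENSRNOG00000036689), the beta subunit, had a similar order of libraries, with 1533, 1377 and 1352 CPM in young and 1942, 1888 and 1343 CPM in old. Again old replicates 1 and 2 stood above the young libraries and old replicate 3 just under them. The log2 fold change was 0.28 (standard error 0.18, edgeR adjusted p = 0.391), and without old replicate 3 it was 0.43 in edgeR (adjusted p = 0.241) and 0.42 in DESeq2 (adjusted p = 0.00267). In that DESeq2 comparison P4ha1, P4hb and Plod1 had an adjusted p under 0.05 and were higher in old, which is 3 of the 10 genes beside 4.15% of all genes, and 0 of the 10 were called beside 4.5% of all genes. Each library was left out in turn, and this omission is given because of its effect on the values. Old replicate 3 was the lowest old library for 8 of the 10 genes, P4ha1 and P4hb among them, so leaving it out raises their old means by construction. The share of 3 of the 10 is therefore no support for an age difference of P4ha1 or P4hb. For P4hb, DESeq2 on all 6 libraries gave an adjusted p of 0.359. With any other library left out, neither P4ha1 nor P4hb had an adjusted p under 0.05 in edgeR or DESeq2.

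P4ha2 (ENSRNOG00000033663) was the most variable member, with 286, 329.9 and 197 CPM in young and 279, 466 and 188 CPM in old. Its groups overlapped, with old replicate 2 above all young libraries and the other old libraries within or just under them. The log2 fold change of 0.20 (standard error 0.35) had a 95% interval from -0.65 to 1.05, and the edgeR adjusted p was 0.756. P4ha3 (ENSRNOG00000017118) had 168, 163 and 209 CPM in young and 173, 174 and 174 CPM in old, and the log2 fold change was -0.05 (standard error 0.12, edgeR adjusted p = 0.804). The old libraries of P4ha3 agreed to 0.442% (coefficient of variation), the closest of any member and closer than counting error would give.

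Within the summed P4ha counts, P4ha1 took 47.1% to 51.3% in young and 49.3% to 60.1% in old, P4ha2 23.7% to 35.4% and 24.6% to 36.5%, and P4ha3 17.5% to 25.1% and 13.6% to 24.4%. The groups overlapped for each, with exact permutation p of 0.4, 1 and 0.5. Alpha subunit counts per P4hb count were 0.623 ± 0.0509 (SD, n = 3) in young and 0.598 ± 0.0730 (SD, n = 3) in old, a difference with an exact permutation p of 0.7.

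In the 3-hydroxylase complex, Crtap (ENSRNOG00000009878) was the steadiest member over the 6 libraries and had 160.1, 161 and 157 CPM in young and 166, 163 and 159 CPM in old. Its log2 fold change of 0.03 (standard error 0.08) had a 95% interval from -0.16 to 0.22, the narrowest of the 10 genes. P3h1 (ENSRNOG00000053991) had 134, 131 and 136 CPM in young and 144, 138 and 108 CPM in old. The log2 fold change was -0.04 (standard error 0.12), with a 95% interval from -0.34 to 0.26. In P3h1, too, old replicate 3 was the lowest of the 6 libraries. edgeR's adjusted p was 0.841 for Crtap and 0.860 for P3h1.

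Serpinh1 (ENSRNOG00000016831) had 1954, 1871 and 2722 CPM in young and 2523, 2006 and 1919 CPM in old. The highest library was young replicate 3 and the next was old replicate 1, so the groups overlapped. The log2 fold change was -0.02 (standard error 0.21, 95% interval from -0.53 to 0.49, edgeR adjusted p = 0.959). Serpinh1 thus differed from P4ha1, P4ha2, P4hb and Plod2 in its order of young libraries, where young replicate 3 was highest and not lowest. Young replicate 3 was also the highest young library in P4ha3 and P3h1.

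For every member but Plod1, the range of log2 CPM within a group was larger than the age difference. Old replicate 3 was the lowest old library for 8 of them, all but Plod1 and P4ha3, and young replicate 3 the lowest young library for 7. Over all genes these libraries were lowest of their group for 34.7% and 39.2%. Each gene was centred on its mean log2 CPM, and the root mean square difference between the centred profiles of a pair of genes was taken as a measure of likeness over the 6 libraries. By this measure, Plod3 and P3h1 were closest (0.08), and P4hb was nearer to Plod3 (0.13) than to P4ha1 (0.15). P4ha2 and Plod2 differed by 0.18, while P4ha1 differed by 0.29 from Plod2 and by 0.33 from P4ha2. Genes that vary little lie close to each other by this measure, whatever their order of libraries.

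Genes of the hypoxia response and the HIF hydroxylases, of which 17 of 18 listed were in the table, were also often lowest in the third replicates. Old replicate 3 was lowest of the old libraries for 13 of the 17 and young replicate 3 lowest of the young for 14. Old replicate 3 was likewise lowest for 15 of 19 general ER folding genes, so that trait was not particular to the hypoxia list, while young replicate 3 was lowest for 3 of those 19. Pgk1, a glycolytic enzyme, had 659, 470.4 and 411 CPM in young and 1249, 1081 and 376 CPM in old, and Ldha, lactate dehydrogenase A, had 946, 659 and 427 CPM in young and 1481, 1205 and 460.0 CPM in old. Bnip3, a mitophagy receptor, had 76.2, 52.4 and 27.5 CPM in young and 222, 178 and 55.7 CPM in old. In each of these genes, as in P4ha1 and P4hb, old replicates 1 and 2 were above the young libraries and old replicate 3 was not. Hif1a had the same order, but in Vegfa and Aldoc old replicate 3 (260 and 13.1 CPM) was also above the young libraries. P4ha2 and Plod2 did not have the order of P4ha1, since old replicate 1 was not above all young libraries. How oxygen, cell density or medium differed between cultures is not given, and the part of the hypoxia genes in the values of P4ha1, P4ha2, P4hb and Plod2 was not tested.

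Over all 6 libraries, 14 of the 17 hypoxia genes were higher in old and their median log2 fold change was 0.68, beside 0.02 over all genes. edgeR called 0 of them, beside 0.00691% of all genes, and DESeq2 called 4, beside 5.56% of all genes. These were Hif1a, the oxygen-sensitive HIF subunit, at 152 to 342 CPM in young and 327 to 937 CPM in old, Vegfa, an endothelial growth factor, at 124 to 146 and 251.5 to 461 CPM, Bnip3, and Aldoc, a glycolytic aldolase, whose log2 fold change was 2.02 (standard error 0.56). With a library left out, DESeq2 called from 1 (without old replicate 2) to 8 (without old replicate 3, where it called 4.5% of all genes).

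**Figure D4:**
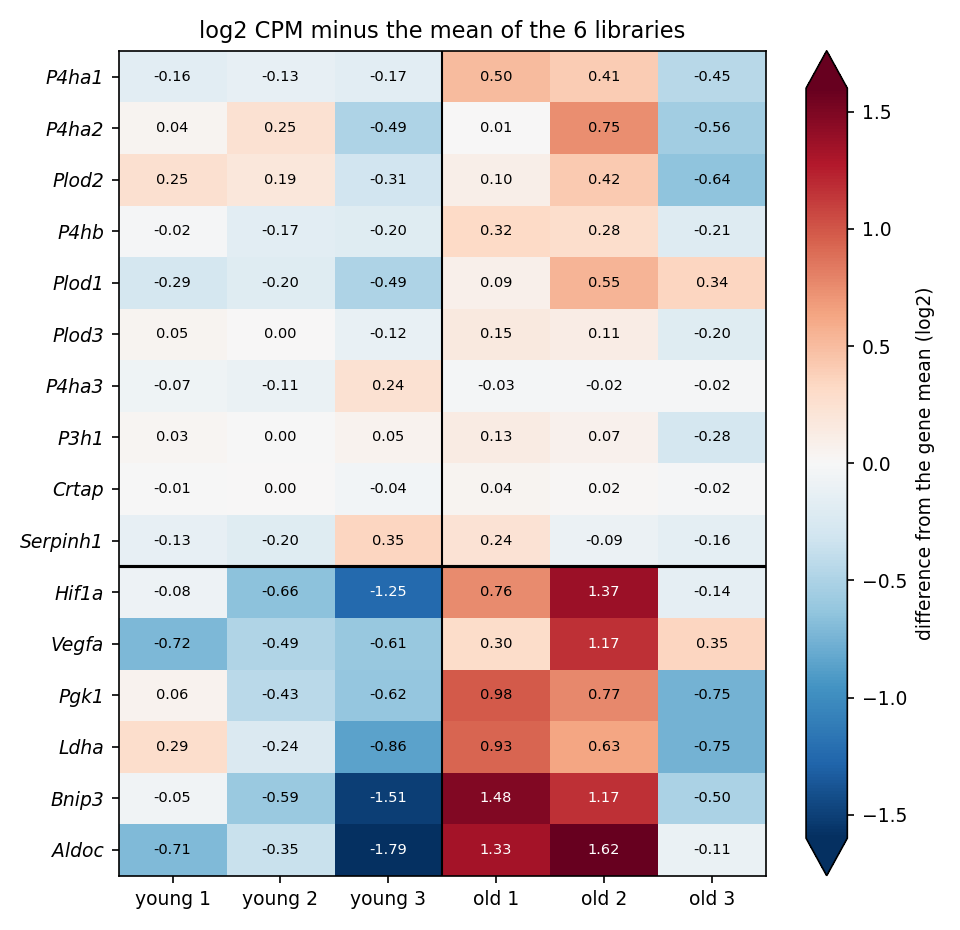
Log2 CPM of the 10 genes (top) and of 6 hypoxia-responsive genes (below the line) in each library, as the difference from the mean of the gene over the 6 libraries. Old replicate 3 is blue for P4ha1 (-0.45), P4ha2 (-0.56), Plod2 (-0.64), Pgk1 (-0.75) and Ldha (-0.75), whereas Plod1 is red in all 3 old libraries (0.09, 0.55 and 0.34).

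Fibrillar collagens are the main substrate of these enzymes. The 10 fibrillar collagen chains in the table (11 were listed) took 5.54%, 4.55% and 5.70% of all counts in the young libraries and 8.30%, 8.83% and 10.8% in the old libraries. Of these chains 9 were higher in old. Their median log2 fold change was 0.58. edgeR called 0, beside 0.00691% of all genes, and DESeq2 called 1 (Col3a1), beside 5.56% of all genes. Col1a1, the main chain of type I collagen, had 14928 to 21235 CPM in young and 29272 to 32726 CPM in old (log2 fold change 0.78, standard error 0.27, edgeR adjusted p = 0.173). Col1a2, its partner chain, had 12908 to 16744 CPM in young and 18928 to 23852 CPM in old (log2 fold change 0.56, standard error 0.25, edgeR adjusted p = 0.245). Col3a1 had 10286 to 15713 CPM in young and 26215 to 42980 CPM in old (log2 fold change 1.31, standard error 0.33, edgeR adjusted p = 0.111). The DESeq2 adjusted p was 0.000277 for Col1a1, 0.0188 for Col1a2 and 5.74e-05 for Col3a1. In DESeq2, 3 of the 10 chains had an adjusted p under 0.05 and were higher in old, beside 5.6% of all genes.

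Set against this substrate, Serpinh1 had 3.60, 4.14 and 4.57 counts per 100 fibrillar collagen counts in young and 3.01, 2.35 and 1.76 in old. The groups did not overlap, and the old mean was 0.578 times the young mean (exact permutation p = 0.1, the smallest possible, and 0.3 after adjustment over 9 shares and ratios). All 10 genes together had 10.8, 12.4 and 10.2 counts per 100 fibrillar collagen counts in young and 8.46, 8.12 and 4.74 in old (exact permutation p = 0.1). By single gene, the old libraries were all lower for Serpinh1, P4ha3, Plod3, P3h1 and Crtap, which is 5 of the 10.

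That separation was not particular to these genes. Because the collagen counts in the denominator were higher in every old library, 67% of all genes were lower per collagen count in each old library, and the median over all genes was 0.580 times the young mean. Of the 10 genes, Plod1 was at 0.894 times, P4ha1 at 0.758 times, P4hb at 0.707 times and P4ha2 at 0.662 times the young mean, above that median. P4ha3, P3h1, Plod2, Serpinh1, Crtap and Plod3 stood between 0.557 and 0.598 times, close to it. So the ratio of each of these 6 genes to collagen differed about as much as that of the median gene.

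**Figure D5:**
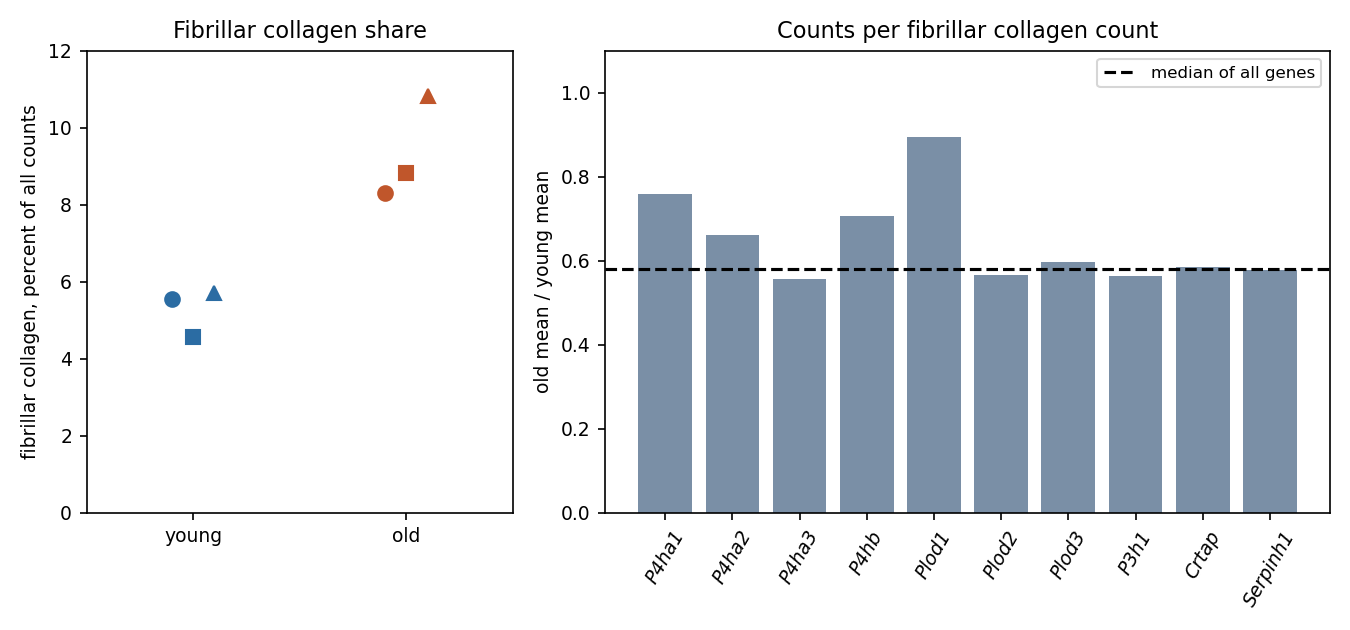
Left, fibrillar collagen as a percent of all counts in each young (blue) and old (orange) library, on an axis from 0. Right, old mean over young mean of the counts per fibrillar collagen count for each gene, with the median of all genes (0.580) as a dashed line; Plod1 is at 0.894 and Serpinh1 at 0.578.

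Other genes of collagen maturation were taken as a list of 28, of which 25 were measured. With age 15 were higher and 10 lower, the median log2 fold change was 0.05, edgeR called 0 and DESeq2 called 1, where it called 5.56% of all genes. The gene called by DESeq2 was Tll1, a procollagen C-proteinase, which had 175, 191 and 302.5 CPM in young and 39.6, 123 and 19.4 CPM in old (log2 fold change -1.87, standard error 0.67, edgeR adjusted p = 0.180). Pcolce, an enhancer of procollagen C-proteinase, had 769 to 828 CPM in young and 951 to 1222 CPM in old (log2 fold change 0.47, standard error 0.14, edgeR adjusted p = 0.142). P3h2, another prolyl 3-hydroxylase, was low at 2.12 to 3.79 CPM in young and 0.519 to 1.99 CPM in old. Ppib, the cyclophilin that binds P3h1 and Crtap, had 339 to 356 CPM in young and 335 to 401 CPM in old, and Fkbp10, a prolyl isomerase that acts with Plod2, had 403 to 497 and 460.0 to 559 CPM.

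At an unadjusted p under 0.05, edgeR gave 4 of the 25 as higher (Pcolce, Fkbp9, Fkbp7 and Creb3l1) and 1 as lower (Tll1), a share near the 22.6% of all genes. Fkbp9, Fkbp7 and Creb3l1 were named after their values had been seen. Creb3l1, a transcription factor of secretory and collagen genes, had 82.0, 85.3 and 102 CPM in young and 132, 146 and 132 CPM in old. The difference was 0.60 on the log2 scale (standard error 0.11), and the adjusted p was 0.0725 in edgeR and 0.000736 in DESeq2. Fkbp9, an ER prolyl isomerase, had 251 to 277 CPM in young and 338 to 361 CPM in old, and Fkbp7 of the same family 44.8 to 54.4 and 57.5 to 83.9 CPM.

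Among general ER folding genes, 19 of the 20 listed were measured. In old VSM cells 14 of them had a lower level and 5 a higher level, and their median log2 fold change was -0.16. edgeR called 0 of them, beside 0.00691% of all genes, and DESeq2 called 1, beside 5.56% of all genes. Hspa5, the main ER chaperone of the HSP70 family, had 963 to 1135 CPM in young and 583 to 1079 CPM in old (edgeR adjusted p = 0.363), and Calr, calreticulin, had 1433 to 1509 CPM in young and 866 to 1553 CPM in old. Hsp90b1, the ER member of the HSP90 family, had an edgeR adjusted p of 0.48. Ero1a, the oxidase that keeps P4hb active as disulfide isomerase, had 155, 146 and 106 CPM in young and 324, 306 and 129.6 CPM in old, again with old replicate 3 the lowest old library (log2 fold change 0.90, standard error 0.36, edgeR adjusted p = 0.209). Ddit3, a stress-induced transcription factor, was called by DESeq2 and had 27.5 to 33.0 CPM in young and 58.3 to 82.7 CPM in old (log2 fold change 1.18, standard error 0.15, edgeR adjusted p = 0.0531).

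Genes that make, move, recycle or consume ascorbate or 2-oxoglutarate (10 of 10 in the table) were split into 4 higher and 6 lower. As the list holds both makers and consumers, this split gives no direction of supply. edgeR and DESeq2 called 0 of them, beside 0.00691% and 5.56% of all genes. Slc2a3, a transporter of glucose and dehydroascorbate, had 156, 174 and 197 CPM in young and 123, 79.1 and 63.5 CPM in old (log2 fold change -0.99, standard error 0.25, edgeR adjusted p = 0.111). Ogdh, a subunit of the dehydrogenase that consumes 2-oxoglutarate, had 180.5 to 186 CPM in young and 135 to 160 CPM in old (edgeR adjusted p = 0.130). The DESeq2 adjusted p was 0.00624 for Slc2a3 (log2 fold change -0.997) and 0.0247 for Ogdh, which passes 0.05 but not the 2-fold minimum. These were 2 of the 10 genes, beside 12.2% of all genes in either direction. Glud1 and Idh1, which make 2-oxoglutarate, had edgeR adjusted p of 0.483 and 0.496, and Gsto2, a dehydroascorbate reductase, was low at 0.692 to 1.18 CPM in young and 1.21 to 2.10 CPM in old.

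The genes whose profile over the 6 libraries was most like that of Plod1, among 11435 genes with a symbol and a mean above 1 CPM, were Pus7l, Slc25a36, Accs, Zfp385a and Bnc2, with root mean square differences from 0.05 to 0.07 on the log2 scale. Their log2 fold changes were 0.70 for Pus7l, 0.59 for Slc25a36, 0.71 for Accs, 0.68 for Zfp385a and 0.69 for Bnc2, and like Plod1 each was highest in old replicate 2 and lowest in young replicate 3.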

How the data were processed

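Total RNA of cultured VSM cells was sequenced as stranded, paired libraries. Per the methods and processing notes, the authors trimmed reads with cutadapt 3.5 through Trim Galore 0.6.7, mapped them with STAR 2.7.10b to Rnor 6.0, and ran featureCounts (Subread 2.0.8) on an annotation they name as RefSeq. The deposited values are raw counts per gene, not normalized, named by Ensembl identifier with a symbol. Each of the 14475 genes reached 10 counts in 3 or more libraries. For strand, mates and multi-mapping reads, the settings were not stated in those sources. Of counts from 1 to 19, 68.7% to 71.1% were even, which counting both mates would leave. In every library the summed counts were also above the highest depth in reads per sample that the paper states. By these figures some fragments were counted more than once, so the counts are not all independent.

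Age was tested with edgeR 4.0.16 in R 4.3.3 (TMM, quasi-likelihood F test, Benjamini-Hochberg over all genes, no covariate, young as reference), with DESeq2 1.42.0 and limma-voom (limma 3.58.1) beside it. The DESeq2 filter was set at 0.05, and 292 genes had no adjusted p. Standard errors are the absolute log2 fold change over the square root of F, and 95% intervals use the t quantile of the fit. Log2 profiles used CPM plus 0.5. Shares and ratios were tested with exact permutation over libraries. With 1 library per rat, p-values of the fits set the age difference against the spread between cultures, in which rat and culture cannot be told apart. The fits were also run on simulated counts of independent libraries, with no effect shared by libraries of the same number. That simulation does not tell how the fits do where 1 library stands apart, as here. Same-numbered young and old libraries had deviations correlated at 0.05, 0.29 and 0.28, and differently numbered libraries at -0.43 to 0.32. These values do not decide whether same-numbered libraries shared a condition. The labels state no pairing, so the main fit took the numbers as no pairs, and a fit with the replicate number as a block was run beside it. In the other lists, genes were named by a rule: those called, the 3 most abundant and the 2 with the largest difference. The genes and lists were chosen with earlier results of these data known. No column of the table was left unused. Gene lengths were not used, so levels were not compared between genes.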

Additional observations from a re-analysis of the deposited data

How the results depend on the processing

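None of the 10 genes was called under any alternative that kept both thresholds. These were RLE size factors, total counts only, both filters, DESeq2, limma-voom, halved counts, the replicate block and the omission of each library in edgeR and DESeq2. With an adjusted p under 0.1 and no minimum fold change, 1 gene (Plod1) passed, beside 4.55% of all genes. Over all genes, edgeR called 1, DESeq2 805 and limma-voom 0, and with a library left out edgeR called 0 to 732 (732 without old replicate 1) and DESeq2 551 to 1377. With the replicate number as a block, 0 of the 10 and 1 of all genes were called, as without it. Plod1, P4ha1, P4hb and Crtap kept their direction in every fit, Plod1 with log2 fold changes from 0.54 to 0.77 in edgeR when a library was left out. Genes near no difference changed sign only with a library left out. In DESeq2, Plod2 was at 0.0551 and 0.0164 without young replicates 1 and 2, Plod3 at -4e-04 without young replicate 3, and Serpinh1 at 0.0213 and 0.0444 without old replicates 2 and 3. The range was -0.215 to 0.459 for P4ha2, -0.120 to 0.0656 for P4ha3, -0.289 to 0.203 for Plod2, -0.0145 to 0.153 for Plod3, -0.120 to 0.0742 for P3h1 and -0.153 to 0.168 for Serpinh1 in edgeR. In DESeq2 it was -0.215 to 0.451, -0.131 to 0.0614, -0.290 to 0.195, -0.0225 to 0.145, -0.129 to 0.0659 and -0.162 to 0.164 in the same order. The shares and ratios changed sign only for P4ha2 (-4.98 to 1.15 percentage points), Plod3 (-1.89 to 0.088 percentage points) and P4ha per P4hb counts (-0.0653 to 0.00659).

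In the other lists, edgeR with all libraries called 0 genes. DESeq2 called 1 other collagen maturation gene, 1 ER folding gene, 4 hypoxia genes and 1 collagen chain, beside 5.56% of all genes. With a library left out, edgeR called 0 to 1 of the ER folding, hypoxia, ascorbate and collagen lists, and DESeq2 called 0 to 2 maturation, 1 to 2 ER folding, 1 to 8 hypoxia (5 without young replicate 1), 0 to 2 ascorbate and 1 to 2 collagen genes. The cause was not tested. With 3 libraries per group, an exact permutation test cannot give a p under 0.1.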
